A study of Homo sapiens with 8 samples.

Results

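The regions of chromosome 17 that carried acetylated histone H3 lysine 27 (H3K27ac) in MDA-MB-231 breast cancer cells are described here, with and without ARID1A. All peaks on chromosome 17 in a knockout and a control peak list were taken, and peaks that overlapped by at least 1 bp were merged into regions. This gave 2335 regions, of 48662 on chromosomes 1 to 22 and X. A region was knockout-only, control-only or shared according to the lists that held a peak in it. The members and their classes were chosen by the peak calls themselves, and chromosome 17 was selected on its shares of both genotype-only classes, since its balance of these classes was the most control-sided of the 23 chromosomes. Class counts and fold values below are descriptions of these calls.

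MDA-MB-231 is an established line of triple-negative breast cancer cells, which lack the oestrogen and progesterone receptors and ERBB2 amplification. The study compared ARID1A knockout cells with control cells of this line by chromatin immunoprecipitation and sequencing, with 8 libraries in 4 groups of 2: knockout immunoprecipitate, knockout input, control immunoprecipitate and control input. The labels do not give how the knockout was made, whether it was a clone, or whether replicates were separate cultures. The values analysed were 2 peak lists, 1 for each genotype, so every value is 1 value per genotype with no replicate spread, and the genotype could not be tested. The mark is named after the titles and sample characteristics; the extraction protocol names an antibody to H3K4me3 instead. The line's markers were read at gene ends, meaning within 1 kb of either end of a protein-coding gene. VIM, CD44, AXL, ZEB1 and TGFBI, genes of mesenchymal cells, were all marked there in both lists. The blood genes PTPRC, CD3E and CD79A and the endothelial genes PECAM1 and CDH5 had none in either list, whereas the luminal genes FOXA1, GATA3 and ERBB3 had a peak in both, ESR1 in the knockout list alone and CDH1 in neither.

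Acetylation of this lysine by the enzymes p300 and CBP marks active promoters and enhancers. The ARID1A protein binds DNA within the BAF remodelling complex, which moves nucleosomes and keeps many enhancers open. Chromosome 17 is gene-dense and holds BRCA1, NF1 and ERBB2 together with the type I keratin, HOXB, CC chemokine and Schlafen gene families.

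The sequences at the starts of genes inside genotype-only regions are shown first, because a peak there bears on a promoter. RefSeq transcription starts on GRCh38, the assembly of hg38, numbered 1639 on chromosome 17. Of these, 4 lay in knockout-only regions, 7 in control-only regions, 926 in shared regions and 702 in none. No share of starts over all chromosomes is at hand, so these counts are descriptions only. The 250 bases before the start are given for 4 of the 11 starts in genotype-only regions, 5′ to 3′ on the gene's strand. TVP23B, which encodes a membrane protein of the Golgi, and SEPTIN4, which encodes a filament-forming GTPase, started in knockout-only regions. LINC02088, a long noncoding RNA gene, and CHRNE, which encodes a subunit of the muscle acetylcholine receptor, started in control-only regions. LINC02088 was named by the fold rule given below, and the other 3 were chosen after their values were seen. Capitals mark matches on either strand to CCAAT (the CCAAT box), GGGCGG (the GC box), TATAAA (the TATA box), TGANTCA (AP-1), GGAATG (TEAD), CACGTG (an E-box) and CCGGAAG (ETS).
TVP23B (chr17:18780933-18781182, plus strand): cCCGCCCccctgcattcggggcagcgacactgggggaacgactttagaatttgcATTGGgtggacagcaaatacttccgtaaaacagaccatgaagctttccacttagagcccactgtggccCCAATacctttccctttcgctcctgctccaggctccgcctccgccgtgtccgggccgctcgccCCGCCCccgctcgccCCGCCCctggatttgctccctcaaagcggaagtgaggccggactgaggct
SEPTIN4 (chr17:58532061-58532310, minus strand): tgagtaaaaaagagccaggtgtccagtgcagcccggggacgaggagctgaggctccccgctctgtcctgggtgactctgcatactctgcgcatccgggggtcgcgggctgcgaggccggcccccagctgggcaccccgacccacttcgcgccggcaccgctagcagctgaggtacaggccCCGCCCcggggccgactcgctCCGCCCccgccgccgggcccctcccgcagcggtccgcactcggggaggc
LINC02088 (chr17:20633252-20633501, minus strand): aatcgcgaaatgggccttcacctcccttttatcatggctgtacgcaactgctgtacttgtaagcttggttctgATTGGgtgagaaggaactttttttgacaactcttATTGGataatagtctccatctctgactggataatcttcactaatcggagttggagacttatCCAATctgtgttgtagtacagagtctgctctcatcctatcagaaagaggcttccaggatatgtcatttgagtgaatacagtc
CHRNE (chr17:4903099-4903348, minus strand): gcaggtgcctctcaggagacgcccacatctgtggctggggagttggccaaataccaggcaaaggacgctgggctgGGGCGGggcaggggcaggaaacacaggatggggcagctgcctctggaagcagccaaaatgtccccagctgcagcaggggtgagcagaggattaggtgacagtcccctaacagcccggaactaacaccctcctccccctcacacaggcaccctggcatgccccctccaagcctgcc

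TVP23B held CCAAT and GC boxes, SEPTIN4 and CHRNE GC boxes alone, and LINC02088 CCAAT boxes alone. Among 35116 RefSeq promoter windows of the same length, 32.0% held a CCAAT box and 42.6% a GC box, so both are common letters. Neighbouring GC box matches can overlap. The G and C content was 62.8% at TVP23B, 74.0% at SEPTIN4, 42.0% at LINC02088 and 64.0% at CHRNE, beside a median of 61.6% over the 1639 windows of chromosome 17. CpG pairs numbered 18 at TVP23B and 26 at SEPTIN4, and 4 each at LINC02088 and CHRNE, beside a median of 15. Over all 11 starts in genotype-only regions the classes were mixed: the other 2 knockout-only starts, those of LOC122455342 and LINC01982, had 6 and 1, and the other 5 control-only starts had 1 to 33, with ABR and COPZ2 above the chromosome's median. The peak at TVP23B was 263 bp wide with a fold enrichment of 2.81, that at SEPTIN4 566 bp with 2.70, that at LINC02088 957 bp with 4.99 and that at CHRNE 818 bp with 4.33. Their −log10 q-values were 1.78, 2.39, 7.70 and 6.56, so the 2 knockout-only peaks were weak calls. CHRNE also had peaks within 1 kb of a gene end in both lists, with folds of 2.72 in the knockout list and 2.65 in the control list. TVP23B was marked at a gene end in the knockout list alone, but SEPTIN4 was not among the genes marked there in 1 list alone. Fold enrichment is the authors' value of a peak over its background and is not scaled between the lists, so the folds of both are set side by side as descriptions only. TVP23B has the closely related copy TVP23C on the same chromosome, and how reads with several placements were treated was not given in the sources used here.

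MicroRNA genes were counted in the same way. Of 95 RefSeq hairpins on chromosome 17, 25 overlapped a shared region, 0 a knockout-only region, 0 a control-only region and 70 none. Genotype-only regions were fewer and shorter than shared ones, and no share over all chromosomes is at hand. The counts of 0 are therefore descriptions and say nothing particular about microRNA genes. The mature sequences of 5 miRNAs are given because their regions were among the widest or most enriched of the chromosome or because they share a seed. Capitals mark the seed, bases 2 to 8.
hsa-miR-21-5p (chr17:59841273-59841294, plus strand): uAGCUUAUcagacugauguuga
hsa-miR-301a-3p (chr17:59151149-59151171, minus strand): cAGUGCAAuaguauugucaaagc
hsa-miR-142-3p (chr17:58331245-58331267, minus strand): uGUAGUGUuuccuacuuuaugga
hsa-miR-132-3p (chr17:2049929-2049950, minus strand): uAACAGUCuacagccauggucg
hsa-miR-212-3p (chr17:2050290-2050310, minus strand): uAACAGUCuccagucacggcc

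hsa-miR-132-3p and hsa-miR-212-3p share the seed AACAGUC and lay in 1 shared region of 1.74 kb, with a fold of 10.1 in the knockout list and 11.1 in the control list. MIR21, a microRNA gene raised in many carcinomas, lay in the 35.8 kb shared region of TUBD1 and VMP1, which had a fold of 27.8 in the knockout list and 18.8 in the control list. MIR301A lay in the 22.8 kb shared region of PRR11 and SKA2, with folds of 9.52 in the knockout list and 9.49 in the control list. MIR142, known as a microRNA gene of blood cells, lay in a shared region of 2.67 kb (58330195 to 58332862) over MIR142HG and TSPOAP1-AS1. Its fold was 31.6 in the knockout list and 33.9 in the control list, the highest value of the control list on this chromosome, although the 3 blood marker genes above had no peak at an end.

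Of the 2335 regions, 303 were knockout-only (13.0%, 95% interval 11.6 to 14.4) and 409 were control-only (17.5%, 16.0 to 19.1), while 1623 (69.5%) were shared. Intervals are exact binomial ones and cover counting error only. Over all chromosomes, 19.6% of regions were knockout-only and 14.7% control-only, so the order of both classes on chromosome 17 was the reverse of that in the whole set. The difference, knockout-only minus control-only share, was −4.54 percentage points on chromosome 17 and 4.87 over all chromosomes. Chromosomes 19, 22 and 9 followed with −2.45, −2.00 and −1.20 points, and chromosome 13 stood at the other end with 17.05. The direction depended on which peaks were kept. Among peaks with a −log10 q of at least 5, 256 regions of chromosome 17 were knockout-only and 119 control-only, a difference of 8.12 points against 13.7 over all chromosomes, the fifth lowest of the 23. With all peaks the median −log10 q of knockout-only regions was 3.86, so the 256 include regions that were shared before. With the same number of peaks from each list the difference was −8.91 points. The plot of the difference by chromosome, with all peaks, shows 4 chromosomes below 0 and 19 above it.

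**Figure D1:**
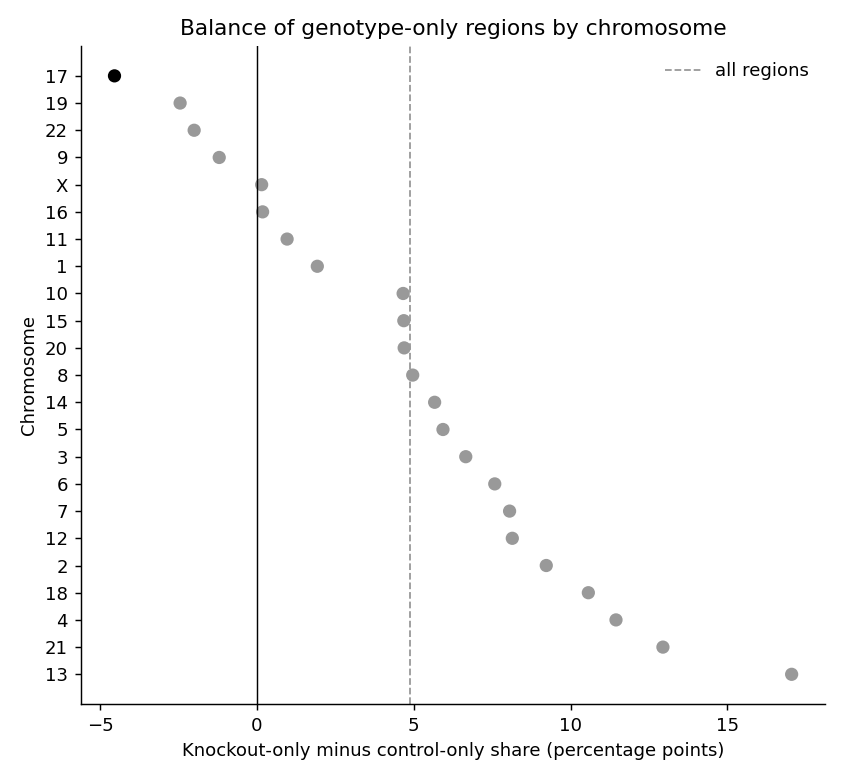
Knockout-only minus control-only share of the regions of each chromosome, in percentage points (x axis), with 1 point per chromosome (y axis) and the value over all regions as a dashed line. Chromosome 17, in black, had the lowest value, −4.54, against 4.87 over all regions.

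Chromosome 17 held slightly more control than knockout peaks, while the knockout list was the longer over all chromosomes. The knockout list had 2014 of its 42552 peaks there and the control list 2059 of its 39797. Knockout peaks covered 4.50 Mb of the chromosome and control peaks 4.98 Mb. The median width was 1586 bp in the knockout list and 1607 bp in the control list, and peaks wider than 10 kb numbered 28 in the knockout list (503 over all chromosomes) and 52 in the control list (608). Fragment pileup, a coverage signal that is not scaled between the lists, had a median of 46.4 in the knockout list (32.0 over all chromosomes) and 29.1 in the control list (22.7 over all chromosomes). Both lists thus stood above their own genome-wide median on this chromosome. The median fold was likewise 6.45 in the knockout list (5.35 over all chromosomes) and 5.63 in the control list (5.18).

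The genotype-only regions were short and weak members of their lists. Their median width was 686 bp for knockout-only and 681 bp for control-only regions, against 2186 bp for shared ones. The median fold was 3.03 for knockout-only and 2.84 for control-only regions, with −log10 q medians of 3.86 and 2.23 and pileup medians of 17.7 and 11.8. The nearest peak of the opposite genotype was at most 5 kb away for 118 knockout-only regions (38.9%) and 134 control-only regions (32.8%). Each whole list was divided into 4 equal parts by fold. In the weakest of them, 45.9% of the knockout peaks on chromosome 17 had no partner (41.1 to 50.8), and 56.9% of the control peaks (52.6 to 61.1). Over all chromosomes the same part gave 53.4% in the knockout list and 49.6% in the control list. In the strongest of the 4 parts 2 of 639 knockout peaks (0.313%) and 1 of 599 control peaks (0.167%) had no partner. The plot of unpartnered peaks by strength shows the knockout line of chromosome 17 under that of all chromosomes in the 2 weaker parts, and the control line above it.

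**Figure D2:**
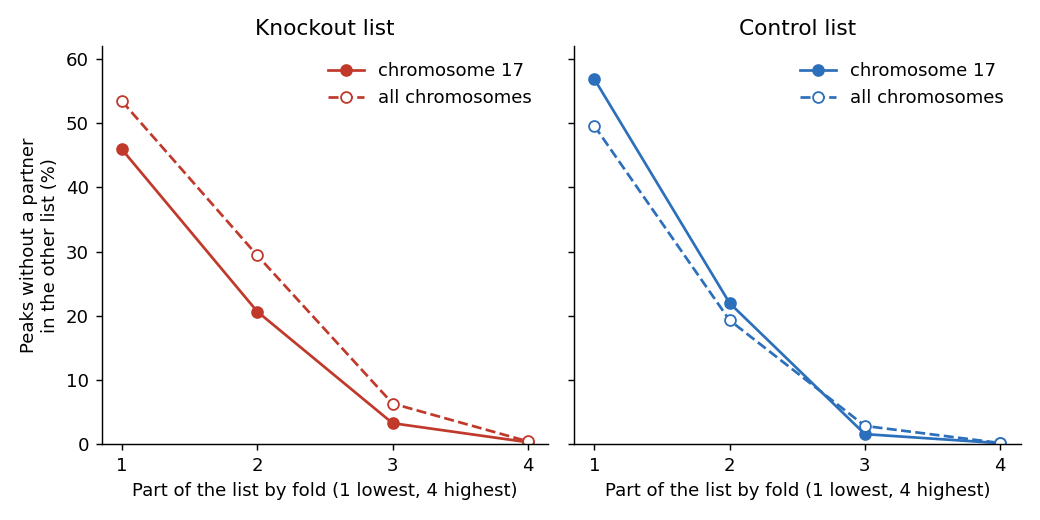
Share of peaks without a partner in the other list (y axis, %) in 4 equal parts of each whole list in order of fold enrichment (x axis, 1 lowest), for the knockout list at the left and the control list at the right. In the lowest of them chromosome 17 (filled points) had 45.9% in the knockout list and 56.9% in the control list, against 53.4% and 49.6% over all chromosomes (open points).

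At the boundary of the class rule, the shared region with the smallest overlap had 73 bp in common (40475911 to 40477026, in TNS4). The closest unshared pair, a knockout-only region (41645545 to 41646259) and a control-only region (41646273 to 41646554) near KRT17, missed each other by 14 bp.

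Shared regions also leaned to the control list on this chromosome. Knockout peaks covered the greater length in 683 of the 1623 shared regions (42.1%) and control peaks in 940 (57.9%), against 50.6% for knockout and 49.3% for control peaks over all chromosomes. Of the 65 shared regions wider than 10 kb, knockout peaks were the longer in 19 and control peaks in 46, and over all chromosomes in 313 and 481 of 794. Summed over shared regions, knockout peaks covered 4.24 Mb and control peaks 4.62 Mb. Widths depend on where the peak caller joined neighbouring stretches: 79 shared regions held several knockout peaks and 26 several control peaks.

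Genotype-only regions lay mostly inside gene bodies and seldom at gene ends. Of the knockout-only regions, 9.24% lay at a gene end (28 regions), 53.8% in a gene body (163) and 37.0% between genes (112). Of the control-only regions, 10.02% lay at a gene end (41 regions), 66.7% in a gene body (273) and 23.2% between genes (95). Shared regions were at a gene end in 40.9% of cases. The control-only class thus held the larger share of gene-body regions and the smaller share between genes. Over all chromosomes the gene-body shares were 47.5% of knockout-only and 57.3% of control-only regions. The 733 regions of chromosome 17 at gene ends were knockout-only in 3.82% and control-only in 5.59% of cases, near the background of 3.79% and 4.36% of gene-end regions over all chromosomes. Within 500 kb, a mean of 16.5 protein-coding genes surrounded knockout-only regions and 18.1 control-only regions, against 8.74 and 11.8 over all chromosomes.

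The term strong is used for a genotype-only region where its best peak ranked among the top 50% by fold of the list it came from and the opposite list was without a peak for 1 kb on either side. Chromosome 17 had 19 strong knockout-only regions (0.814% of its regions, 0.491 to 1.27) and 9 strong control-only regions (0.385%, 0.176 to 0.730). Over all chromosomes 1.48% and 0.619% of regions were strong knockout-only and strong control-only. The strong class was therefore larger on the knockout side on this chromosome too, unlike the whole set of genotype-only regions, and both shares lay below the background.

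Along the chromosome, the control-only share was the higher in nearly every 5 Mb window. Of 17 windows, numbered from the end of the short arm, 15 had more control-only than knockout-only regions, 1 had equal numbers and 1 had more knockout-only regions. Among the 552 such windows of all chromosomes with at least 20 regions, 179 (32.4%) had more control-only regions. The median difference was −3.92 points over the 17 windows and 5.49 over the 552. Apart from the 6 windows described next, knockout-only shares ran from 9.15% to 17.1% and control-only shares from 13.1% to 20%. Knockout peaks covered fewer bases than control peaks in 13 of the 17 windows.

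The window with the lowest difference, 20 to 25 Mb, was also the lowest of all 552. Of its 40 regions 3 were knockout-only (7.50%, 1.57 to 20.4) and 19 control-only (47.5%, 31.5 to 63.9), and knockout peaks covered 41.4 kb and control peaks 77.1 kb. It held 11 protein-coding genes, the fewest of the 17 windows. A single run that began beside KCNJ18, described below, made up 11 of the 19 control-only regions. The window 35 to 40 Mb, which holds ERBB2 and 102 genes in all, followed: 13 of 145 regions were knockout-only (8.97%, 4.86 to 14.8) and 32 control-only (22.1%, 15.6 to 29.7). The window 0 to 5 Mb, also with 102 genes, came next with 27 knockout-only and 42 control-only regions of 206, a difference of −7.28 points. Without peaks under a −log10 q of 5, the difference was −18.2 points in the window 20 to 25 Mb, 7.22 in the window 35 to 40 Mb and 2.78 in the window 0 to 5 Mb, so the last 2 turned round. Set 2.5 Mb further along, the window had 19 regions and a difference of 10.5 points. Apart from the region 22569790 to 22570215, these lay beyond 25 Mb, past a stretch of 4.64 Mb without a region. The shifted window thus describes other regions and cannot show whether the direction at 20 to 25 Mb holds. With all peaks, the counting intervals of both classes were apart in the windows 20 to 25 Mb and 35 to 40 Mb and overlapped in the other 15.

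The 1 window with more knockout-only regions was 10 to 15 Mb, where 12 of 34 regions were knockout-only (35.3%, 19.7 to 53.5) and 7 control-only (20.6%, 8.70 to 37.9). A single run around HS3ST3A1, described below, made up 7 of the 12 knockout-only regions, so the direction of this window rested largely on 1 locus. Of those 12, 10 lay between genes, against 1 of the 7 control-only regions, and 4 of the 7 lay in the body of GAS7, a growth arrest gene. The window 5 to 10 Mb had 15 regions of each class among 148, and the window 15 to 20 Mb had 25 knockout-only and 26 control-only regions among 170.

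Across the windows of this chromosome, gene density went along with how much was shared but hardly with the balance of the genotype-only classes. Across the 17 windows the number of protein-coding genes had a Spearman rank correlation of 0.715 with the shared percentage, 0.807 with the percentage of regions at gene ends, 0.853 with the number of regions and −0.124 with the difference in share. The windows come from the same 2 lists and neighbour each other, so these are descriptions. Windows with 37 to 90 genes numbered 9 on chromosome 17, with a median difference of −3.81 points, and 117 on the other chromosomes, with a median of −1.06 and a range of −24.3 to 34.1. The median over all 552 windows was 5.5 points. The values of these 9 windows, −6.38 to −0.588, lay within the range of equally gene-dense windows elsewhere. The window 20 to 25 Mb, with 11 genes and −40.0 points, was outside this comparison. The part of gene density in the chromosome's balance was not tested.

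**Figure D3:**
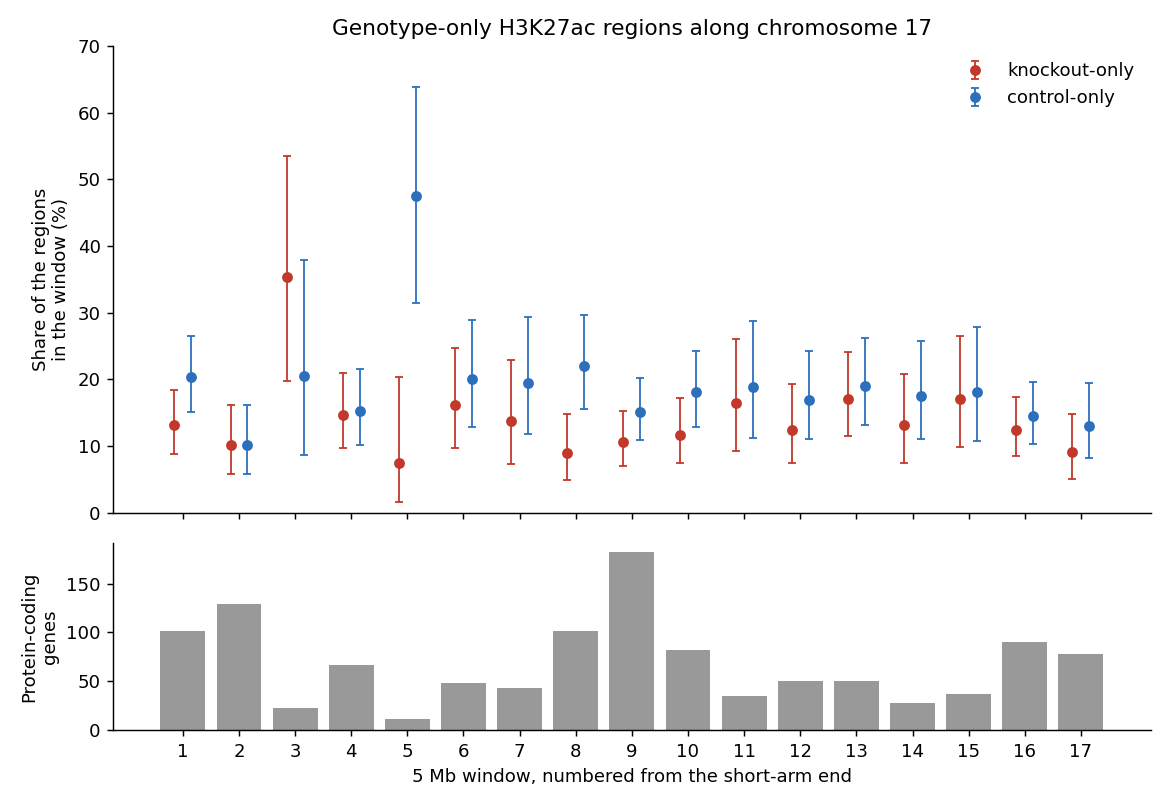
Share of regions that were knockout-only (red) and control-only (blue) in the 17 windows of 5 Mb along chromosome 17, with exact 95% binomial intervals for counting error (upper panel, %), and protein-coding genes per window (lower panel). Window 5 (20 to 25 Mb) had 7.50% knockout-only and 47.5% control-only regions, and only window 3 (10 to 15 Mb) had the higher knockout-only share.

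Control-only regions came in runs more often than knockout-only ones. A run is a series of consecutive regions of 1 class with no region of another class between them. Single regions made up 72.6% of the knockout-only and 58.9% of the control-only class. Runs of at least 3 regions numbered 6 in the knockout-only class (23 regions, 7.59%) and 22 in the control-only class (88 regions, 21.5%). The control-only class was also the larger, with 409 regions against 303, and a larger class forms runs more readily. No share over all chromosomes is at hand to set beside these counts, and the difference was not tested.

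The longest knockout-only run, of 7 regions over 367 kb (13362591 to 13729417), surrounded HS3ST3A1, which encodes a heparan sulfate 3-O-sulfotransferase. Its peaks had folds of 2.37 to 7.73 and pileups of 14.2 to 53.8, and 2 of them lay inside the gene. The farthest was 333 kb from any control peak. A shared region at one edge of the run (13344983 to 13349273) had a fold of 15.9 and 4.29 kb in the knockout list, against 4.59 and 2.31 kb in the control list. Of the other 5 knockout-only runs, 4 were named by the rule: 4 regions in USP32 (60287423 to 60358300, folds 3.90 to 4.68), a deubiquitinase gene, and 3 each in and beside APPBP2 and USP32 (60408376 to 60470697), in and beside STXBP4 (55090123 to 55238756) and beside PMP22 (15270404 to 15279029), which encodes a myelin protein. USP32 had 6 knockout-only and 0 control-only regions in its body, with 13.0 kb of knockout and 7.47 kb of control peaks.

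The longest control-only run, of 11 regions over 880 kb (21689842 to 22570215), began beside KCNJ18, which encodes an inwardly rectifying potassium channel, held 2 regions in its body and extended toward the centromere. From 22088420 on, the regions of the run lay between genes, 384 to 865 kb from KCNJ18, the nearest protein-coding gene. The peaks of the run had folds of 2.67 to 6.43, pileups of 7.19 to 19.8 and a summed length of 20.4 kb. Its last peak lay 1018 kb from the nearest knockout peak and was the last region before a stretch of 4.64 Mb with no region of either list. KCNJ18 is a near-identical copy of KCNJ12, so the 2 calls inside it are uncertain. The placement of reads was not tested for any region of the run. The control-only runs of 8 regions (64524776 to 64568145, folds 2.39 to 2.85) and 5 regions (64581740 to 64613684, folds 2.46 to 3.37) lay in CEP95 and SMURF2. MPRIP held 6 in a row (17055025 to 17119231, folds 2.42 to 4.93) and CRK 4 (1438251 to 1450116, folds 2.46 to 3.56).

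SMURF2, which encodes a ubiquitin ligase of TGF-beta receptor signalling, had the widest shared region of the chromosome. That region spanned 50.2 kb (64615980 to 64666198), of which 3 knockout peaks covered 22.9 kb and 1 control peak all 50.2 kb, with folds of 9.65 in the knockout list and 7.76 in the control list. Over the whole gene body SMURF2 had 0 knockout-only and 11 control-only regions, 24.6 kb of knockout and 69.2 kb of control peaks. YWHAE, the gene of the adaptor protein 14-3-3 epsilon, had 0 and 6, with 6.81 kb in the knockout list and 21.4 kb in the control list. MPRIP, which encodes a partner of myosin phosphatase, had 0 and 7, and SEPTIN9 2 and 7. These 4 genes had peaks in their bodies in both lists. PECAM1, a gene of endothelial cells and platelets, went the other way with 3 knockout-only and 0 control-only regions, and 25.8 kb of knockout and 6.81 kb of control peaks in its body, although neither list had a peak at its ends. KSR1, a scaffold gene of the RAS pathway, and PRKCA, a protein kinase C gene, had 3 knockout-only and 0 control-only regions each. Knockout peaks covered 14.7 kb and control peaks 11.6 kb of KSR1. In PRKCA the covered lengths were close, with 38.6 kb of knockout and 39.7 kb of control peaks. Other genes had regions of both classes, such as SLC39A11 with 5 knockout-only and 2 control-only regions and NXN with 3 of each.

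The knockout-only regions at gene ends with the highest folds were those of C1QL1, which encodes a secreted synaptic protein (fold 5.70; 44968117 to 44968893), of ITGAE and NCBP3 (1 region, 5.35; 3801991 to 3803874) and of STAC2 (4.67; 39209166 to 39210113). ITGAE encodes the alpha chain of an integrin that binds E-cadherin, and NCBP3 an RNA cap-binding protein. HOXB5, a homeobox gene (4.64; 48593638 to 48594016), MYO1D, a myosin gene (4.57), WNT3, a Wnt ligand gene (4.40), and SOST, which encodes the Wnt antagonist sclerostin (4.30), followed. The last of the 10 were CCL2, a monocyte-attracting chemokine gene (4.28), the kinase gene CDK3 (3.82) and TVP23C (3.80). The CCL2 region, a single peak of 3.85 kb (34252024 to 34255874), stood 705 kb from the nearest control peak, whereas control peaks lay within 6 kb of the C1QL1, STAC2, HOXB5, MYO1D, SOST and CDK3 regions. The class is that of the region, not of the gene. C1QL1, NCBP3, MYO1D, CDK3 and TVP23C were marked at an end in both lists. ITGAE, STAC2, HOXB5, WNT3, SOST and CCL2 were marked there in the knockout list alone.

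Away from gene ends, knockout-only regions reached higher folds. They were also more numerous there, with 163 in gene bodies and 112 between genes, against 28 at gene ends. A larger group can hold higher top folds, and a difference by place was not tested. The highest fold was 13.8 at a region only 0.445 kb wide (19209639 to 19210083), 27.3 kb from EPN2, an endocytic adaptor gene. It was followed by a region 6.37 kb from CBX2, a Polycomb gene (10.99; 79769346 to 79770945), and one 10.8 kb from RNF157 (10.2). Next came regions inside PECAM1 (9.47; 64325864 to 64328720) and inside MTMR4, a lipid phosphatase gene (9.35). Those near TNRC6C, a gene of microRNA silencing, and near HS3ST3A1 had 7.73 each. TRPV1, the capsaicin receptor gene (6.70), MYH13, a myosin gene of eye muscles (6.14; 140.5 kb from a control peak), and TVP23C (6.12) closed the 10. All 10 were in the strong class.

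The control-only regions at gene ends were led by GPRC5C, an orphan receptor gene (fold 7.20; 74430294 to 74431846), 216.9 kb from the nearest knockout peak. RUNDC3A (5.53), the region of CLTC and PTRH2 (5.41; 59695047 to 59697656) and RDM1, a gene with a RAD52 motif (4.67), came next. CLTC encodes the clathrin heavy chain. HASPIN, the gene of a mitotic kinase of histone H3 (4.59; 3726277 to 3727822), CDRT4 (4.27), MIEF2, a mitochondrial fission gene (4.12), and the region of CLDN7, a tight junction gene, and ELP5 (3.99) followed, with PPP1R9B (3.81) and ACBD4 (3.80) last. A knockout peak lay within 2 kb of the HASPIN, CLDN7 and ACBD4 regions. Of these genes, CLTC, PTRH2, HASPIN, MIEF2, CLDN7, ELP5, PPP1R9B and ACBD4 were marked at an end in both lists. At CLTC the highest folds there were 22.9 in the knockout list and 24.9 in the control list. GPRC5C, RUNDC3A, RDM1 and CDRT4 were marked at an end in the control list alone.

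Outside gene ends, control-only folds were led by a region 33.9 kb from NLRP1, an inflammasome sensor gene (10.2; 5618394 to 5619973). Regions inside ALDH3A1, an aldehyde dehydrogenase gene (7.38), inside DNAH9, a gene of the ciliary motor dynein (6.67), and beside KCNJ18 (6.43) followed. The others were inside PITPNM3 (6.15), 1.38 kb from BIRC5, which encodes the apoptosis inhibitor survivin (5.21), at LINC02088 (4.99), inside MPRIP (4.93), inside BAHCC1 (4.81) and inside ITGAE (4.78). ITGAE thus had a knockout-only region at an end and a control-only region in its body, 34.8 kb from the nearest gene end.

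The highest folds of both lists belonged to shared regions. In the knockout list these were FMNL1, a formin gene (41.0, against 29.1 in the control list), ACAP1 and KCTD11 (40.1, against 33.2) and a region of KDM6B, which encodes a demethylase of H3K27 (39.9, against 27.3). MYO1C (38.1, against 23.1) and the region of ENO3, PFN1, RNF167 and SLC25A11 (36.2, against 24.4) followed. In the control list the region of MIR142 led, followed by ACAP1 and KCTD11, FMNL1, LINC00910 (26.8 in the knockout list, 28.5 in the control list) and CFAP97D1 and DUSP3 (24.9 and 28.5). Besides SMURF2 and TUBD1 with VMP1, the widest shared regions were those in ADORA2B, an adenosine receptor gene (28.1 kb), at ITGA3, an integrin gene (27.3 kb), and at PRR11 and SKA2.

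Most genes of the chromosome had the same state at their ends in both lists. Of 1157 protein-coding genes, 21 were marked at an end in the knockout list alone (1.82%) and 23 in the control list alone (1.99%), against 1.73% and 1.85% of genes over all chromosomes. Another 760 (65.7%) had a peak in both lists, against 61.5% over all chromosomes, and 353 in neither. Both genotype-only shares of genes thus lay near the background. For 19 of the 21 and 18 of the 23 the peak lay in a genotype-only region. At KCNAB3 and PRAC1 in the knockout list, and at ASGR1, GRB7, KCTD2, SCN4A and TMC6 in the control list, the region was shared and the peak of the other list stopped short of the window.

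The following counts concern gene ends, not gene bodies. The general lists of growth and repair genes were marked there in both genotypes throughout. All 14 tumour suppressor and DNA repair genes did, among them BRCA1 (fold 19.5 in the knockout list and 14.8 in the control list), NF1 (22.99 and 18.4) and MAP2K4, a stress kinase gene (28.7 and 13.2). So did all 19 chromatin regulators, with SMARCE1 (30.1 and 16.9) and SMARCD2 (16.1 and 10.3), the genes of other BAF subunits. All 12 replication and mitosis genes and all 28 housekeeping genes did as well. At TK1, which encodes thymidine kinase, peaks at the ends measured 1.97 kb in the knockout list and 12.2 kb in the control list, and at BIRC5 1.78 and 3.36 kb.

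Of 18 genes of cytokine signalling and innate immunity, 16 were marked at an end in both lists and 2 in neither. They included STAT3 (18.7 in the knockout list and 16.0 in the control list) and SOCS3 (14.4 and 15.2), a transcription factor gene and a feedback inhibitor gene of cytokine receptors. Of 15 adhesion and matrix genes, 10 were marked at an end in both, 3 in neither (among them PECAM1, which had peaks in its body) and 2 in the knockout list alone, which were ITGAE (5.35) and the metalloproteinase gene MMP28 (3.24). Among 25 transcription factor genes, 14 were marked at an end in both, 9 in neither and 2 in the control list alone. These were RARA, a retinoic acid receptor gene (2.503), whose peak lay 413 bp from a knockout peak, and the homeobox gene MEOX1 (2.47). At TBX2, a T-box factor gene, knockout peaks at the ends measured 0.694 kb and control peaks 4.29 kb. Of 10 genes of 17q23, 8 were marked at an end in both lists and 2, USP32 and CA4, in neither, although USP32 had peaks in its body.

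Many genes of the tissue-specific clusters had no peak at an end in either list, although most Schlafen genes had one. Shared regions lay within the span of every one of these clusters except that of the muscle myosin genes. Of 27 type I keratin genes, 6 were marked at an end in both lists and 21 in neither. KRT10, of the upper epidermis, had folds of 18.0 in the knockout list and 12.9 in the control list, and KRT19, of simple epithelia, 12.9 and 7.97. The whole keratin span of 927 kb held 0 knockout-only, 1 control-only and 20 shared regions. None of the 6 genes of muscle myosin heavy chains was marked at an end in either list, and MYH3 had a control-only region in its body (fold 2.78). Of 14 CC chemokine genes, CCL2 alone had a peak at an end, in the knockout list, and the other 13 had none there in either list. Of 6 Schlafen genes, SLFN5, SLFN12 and SLFN13 had a peak at an end in each list. SLFN11, whose product acts in cells under replication stress, had one in the control list alone (3.33; 35374407 to 35375117), 27.6 kb from the nearest knockout peak. At the ends of the HOXB genes, HOXB9 and HOXB13 were marked in both lists, HOXB5 in the knockout list alone, and 7 genes in neither. One of the 7, HOXB3, had a shared region of 4.48 kb in its body, with a fold of 11.5 in the knockout list and 7.41 in the control list. A shared region beyond HOXB2 (48535481 to 48538365) held 2.89 kb of knockout peaks with a fold of 14.3, against 0.727 kb with a fold of 3.86 in the control list.

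Around ERBB2, the growth factor receptor gene amplified in another class of breast cancer, 13 of 21 genes were marked at an end in both lists, 1 in the control list alone and 7 in neither. The control-alone gene was GRB7, whose region was shared. The region at the start of ERBB2 (39687283 to 39689774) had a fold of 9.44 in the knockout list and 9.58 in the control list, and the region at its other end, in MIEN1, 13.1 in the knockout list and 10.3 in the control list. CSF3, the gene of granulocyte colony-stimulating factor, and MED24 shared a region of 14.5 kb (40013135 to 40027635), with a fold of 28.7 in the knockout list and 10.7 in the control list. The span of 696 kb held 4 knockout-only, 1 control-only and 25 shared regions, and 2 of the 4 lay in the body of THRA, a thyroid hormone receptor gene.

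Among 28 genes of other cell types, 9 were marked at an end in both lists and 16 in neither. The platelet gene GP1BA (2.63) and the gut hormone gene GIP (2.48) had one in the knockout list alone, and SSTR2, a somatostatin receptor gene (2.49), in the control list alone. These folds stood at percentiles 8.28, 4.64 and 2.33 of their lists.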

How the data were processed

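The authors deposited 2 MACS2 peak lists, 1 per genotype, each naming an immunoprecipitate and an input. Per the submitters' processing notes, Bowtie2 2.3.5.1 was used for alignment, MACS2 2.2.6 for peak calling and hg38 as the build. Tool options, depths per library and any pooling of replicates are not given in the sources used here. Each peak had, per the file headers, a position, width, pileup (a coverage signal), −log10 p-value, fold enrichment over background (a ratio) and −log10 q-value, all the authors' values. Precision is therefore limited by unknown depth.

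Regions, gene positions (RefSeq, GRCh38.p14) and shares were computed with pandas 2.3.3, numpy 2.4.6 and scipy 1.17.1 under Python 3.11.15. bedtools 2.31.1 gave the same overlap counts, the merging was tested on simulated data, and matplotlib 3.10.9 drew the figures. The gene table gave no strand, so both ends of a gene were used; listed transcription starts covered 71.2% of the chromosome's protein-coding genes. Promoter and miRNA sequences are from RefSeq on the same assembly. Intervals are exact binomial (Clopper-Pearson, 95%).

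Named regions were the 10 of highest fold per genotype-only class at and away from gene ends, the 5 widest shared regions, the 5 highest folds of each list, the 5 longest runs per class, the 3 highest and 3 lowest windows, and members of 15 gene lists (253 genes) marked at an end in 1 list alone; gene bodies, clusters and other list members were named after their values were seen. Members, lists and rules were chosen with earlier results of these data known. Alternatives were a −log10 q of at least 5, equal peak numbers, other overlap and merging rules, strength limits, windows and gene ends.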

Additional observations from a re-analysis of the deposited data

How the results depend on the processing

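With 1 list per genotype, no replicate could be left out, and the depth behind each list is unknown. No paired analysis was possible because the replicate numbers of the libraries are not carried by the 2 peak lists. When peaks under a −log10 q of 5 were dropped from both lists, control-only regions came to 119 and the chromosome's difference turned to 8.12 points, the fifth lowest of 23 chromosomes, against 13.7 over all of them. That setting also gave 49 strong knockout-only and 23 strong control-only regions, 14 genes with a control-only peak at an end, and 13 control-only regions at gene ends. The window differences under it were 7.94 (15 to 20 Mb), 7.22 (35 to 40 Mb), 2.78 (0 to 5 Mb) and −18.2 points (20 to 25 Mb). It left 31598 knockout and 26745 control peaks, so it removed more of the control list. With the same number of peaks from each list the difference was −8.91 points, again the lowest of 23 chromosomes, and with 50% coverage required it was −5.36. Restricting strong regions to the upper 25% left 2 knockout-only and 1 control-only. Windows set 2.5 Mb further along gave −11.0 (from 15 to 20 Mb), −3.90 (from 0 to 5 Mb) and, with 19 regions, 10.5 points (from 20 to 25 Mb). The last of these spanned the long stretch without a region and held mostly regions beyond 25 Mb. With 2 kb at gene ends, 63 control-only regions lay there. Within 1 kb of a listed transcription start, an alternative chosen after seeing the data, were 13 knockout-only and 17 control-only regions. Without the 20 to 25 Mb window, also chosen after seeing the data, the difference was −3.92 points. The cause of these shifts was not tested.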
